A study of Mus musculus with 25 samples.

Results

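Melanomas that had become resistant to a BRAF inhibitor were compared between the 2 batches of the same study. All were tumors of a single line, YUMM1.7, a mouse melanoma line with mutant Braf and without Cdkn2a, and were sampled as biopsies. The batch 2 resistant tumors (n = 3) carry the mark "batch 2" in their labels, and the batch 1 resistant tumors (n = 5) carry no batch mark. Both sets have the same label otherwise: resistant to a BRAF inhibitor, with no antibody. The labels do not name the inhibitor. The other tumors of the series were small (n = 2) and large (n = 2) tumors that also received an antibody against PD-L2 (batch 2), and residual (n = 5), regressing (n = 4) and untreated (n = 4) tumors without it (batch 1). The small anti-PD-L2 tumors are labelled residual, as are the residual tumors of batch 1. The genes described are the 11545 of 23940 in the table whose mean over the 8 resistant tumors was at least 1 FPKM, a unit of fragments scaled by transcript length and library size. Numbered tumors below are the label numbers within a group.

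Mutant BRAF signals without upstream input through MEK to ERK, and ERK switches on its own inhibitors, among them the dual-specificity phosphatases and Sprouty proteins. A BRAF inhibitor blocks this flow, and tumors that regrow on the drug commonly regain it. Extra copies of the mutant gene are among the routes described in human melanoma. Tumors also differ in their stroma: macrophages, neutrophils and blood all add RNA to a biopsy, and in bulk RNA fewer cells of a type and less RNA per cell cannot be told apart.

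The data held fewer rises than falls in batch 2. Of the 11545 genes, 511 (4.43%) passed an adjusted p below 0.05 in limma, of which 150 (1.3%) were higher and 361 (3.13%) lower in batch 2. The median log2 difference of all genes was -0.06, and 29.4% of the called genes were higher. After median-of-ratios scaling, which puts that median at 0.00, 201 genes were higher and 253 lower (44.3% higher). The values of the 2 sets did not overlap for 509 of the called genes and for 1903 (16.5%) of all those tested. Batch and any other difference between the 2 experiments cannot be told apart here. Nothing in the labels says that the tumors of a set came from separate mice, so p-values measure the spread between these samples.

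The count rested on single tumors. It lay between 61 genes without batch 2 tumor 1 and 1433 without batch 2 tumor 3, and was 335, 119, 105 and 111 without batch 1 tumors 1, 2, 3 and 5. Of the 511 genes, 54 passed without each single tumor in turn, 12 higher and 42 lower. Of the 67 called genes named here, 21 are among these 54. The batch 2 columns were less alike: the rank correlations across genes were 0.897 to 0.939 for their 3 pairs and 0.963 to 0.978 for the 10 pairs within batch 1. The columns of batch 1 tumors 2, 4 and 5 look like means of a pair of values, and those of batch 2 do not. The part of this in the correlations and the p-values was not tested.

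The tumors lacked pigment cell transcripts in both sets. Pmel was at 0.146 to 0.346 FPKM in batch 2 and 0.113 to 0.342 in batch 1, and Dct was listed at 0 in batch 2 and at 0.0215 to 0.164 in batch 1. Pax3 and Sox9, transcription factors of the neural crest, were present at 8.51 to 11.8 and 67.9 to 84.6 FPKM in batch 2, against 8.02 to 11.2 and 70.3 to 97.2 in batch 1. Of 5 tested melanocyte lineage genes 0 were called by limma and 0 had an unadjusted p below 0.05, with a median of -0.14. Mitf, the main regulator of melanocytes, had a log2 difference of 0.54 (adjusted p = 0.427). Cdkn2a, with 7.25 to 8.14 FPKM in batch 2 and 4.95 to 8.36 FPKM in batch 1, was detected in every resistant tumor. Gene totals do not show whether the deleted exons were present.

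Braf had the smallest adjusted p of all genes tested. The 2 sets were compared with their difference in Braf level already known. The rank and p-values of Braf thus describe that difference and are no independent test of it. Braf was at 4.59, 4.33 and 5.69 FPKM in batch 2, against 51.3, 43.5, 44.4, 31.9 and 49.7 FPKM in batch 1. The sets did not overlap, and the log2 difference was -2.93 ± 0.17 (SE; adjusted p = 0.000394). Without any single tumor it stayed between -3.04 and -2.87, with adjusted p-values of 5.88e-05 to 0.00344. The batch 2 level overlapped with that of the other groups: 5.32 and 5.00 FPKM in large and 5.93 and 4.69 in small anti-PD-L2 tumors, 4.12 to 7.35 in residual, 4.14 to 5.23 in regressing and 3.52 to 4.52 in untreated tumors. FPKM do not separate the mutant from the normal transcript, and DNA copy number was not analysed here.

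Most neighbours of Braf on chromosome 6 were lower with it. Mrps33, a mitochondrial ribosome protein and the next tested gene after Braf, was at 38.8, 39.1 and 37.0 FPKM in batch 2, against 322, 359, 328, 184 and 296 in batch 1 (log2 difference -2.89 ± 0.21, adjusted p = 0.000746). Kdm7a, a histone demethylase, was at 12.5, 10.7 and 14.4 FPKM in batch 2, against 88.0, 59.4, 64.6, 56.2 and 77.9 in batch 1 (-2.36 ± 0.17, adjusted p = 0.000746). Hipk2, a kinase of the DNA damage response, was at 1.75, 3.01 and 3.27 FPKM in batch 2, against 35.6, 28.1, 19, 25.4 and 24.1 in batch 1 (-2.90 ± 0.21, adjusted p = 0.000814). For each of these genes every batch 1 tumor was several times above every batch 2 tumor. Slc37a3, Mkrn1, Dennd2a, Adck2 and Ndufb2, chosen after their values were seen, also fell, with log2 differences of -2.39, -2.46, -2.18, -1.97 and -2.15 and adjusted p-values of 0.00494 to 0.00563. All 9 of these genes passed without each single tumor. The list of Braf and its neighbours, which was drawn up from earlier results of these tumors, had 9 of 15 tested members lower and 0 higher. Its median was -2.15 against -0.06 over all genes, of which 3.13% were called lower. As the Braf difference was known beforehand, the count and median of this list are no independent test.

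Along the chromosome, the genes were taken in the order of the RefSeq annotation of GRCm38.p6. A running median over 9 tested genes was at or beyond 1 on the log2 scale from D630045J12Rik to Ssbp1, a run of 23 genes. Of these, 22 had a negative difference, 10 were called, and the median was -1.57. The exception in direction was Tbxas1, a thromboxane synthase of myeloid cells, at 3.20, 4.29 and 1.80 FPKM in batch 2 and 1.75, 0.519, 0.770, 0.814 and 0.629 in batch 1 (1.10 ± 0.26, adjusted p = 0.0514; it passed after median-of-ratios scaling and without batch 1 tumor 1 or batch 2 tumor 3).

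**Figure D1:**
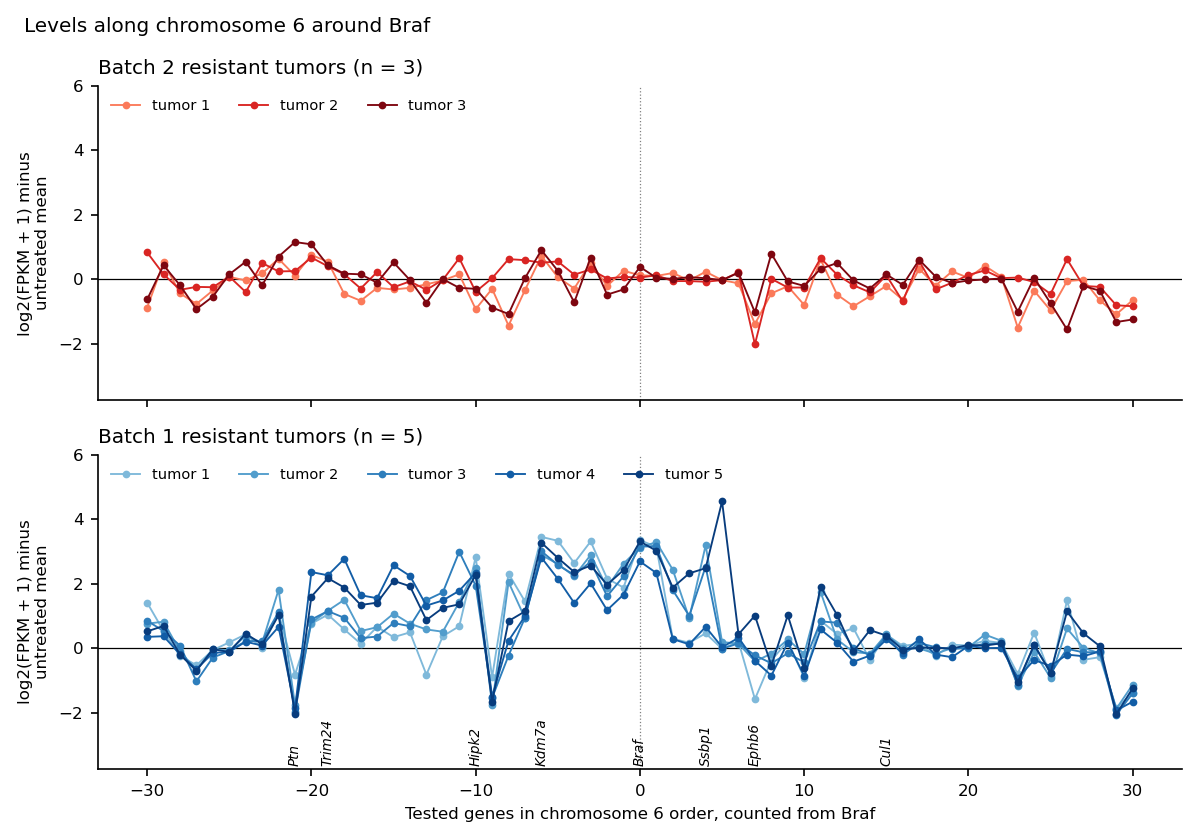
Levels of tested genes in chromosome 6 order around Braf, as log2(FPKM + 1) minus the mean of the untreated tumors; batch 2 resistant tumors above, batch 1 resistant tumors below, with a line for each tumor. The batch 2 lines stay near 0 at Braf, while all 5 batch 1 lines are raised there over stretches of different length.

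The raised stretch of chromosome 6 differed from tumor to tumor in batch 1. Relative to the untreated mean, a running median over 5 genes around Braf was at or above 1 in none of the 3 batch 2 tumors. In batch 1 the stretch held 11 genes from Tbxas1 to Mrps33 in tumor 1, 14 from Hipk2 to E330009J07Rik in tumor 2 and 10 from Kdm7a to E330009J07Rik in tumor 3. It held 8 genes from Kdm7a to Mrps33 in tumor 4 and 29 from Ptn to Ephb6 in tumor 5. The median rise within the stretch was 2.64, 2.46, 2.42, 2.08 and 1.92 in tumors 1 to 5. The span from Kdm7a to Mrps33 was thus in the stretch of every batch 1 tumor. The ends are those of the running median, so single genes at or beyond them can differ. Tbxas1 in tumor 1 (-0.90) and Ptn in tumor 5 (-2.03) lay below the untreated mean. In tumor 4, Hipk2 (2.34), Luc7l2 (1.48) and Trim24 (2.26), before the stretch, were also raised, with Tbxas1 (-1.50) and Parp12 (0.23) lower. Of the 23-gene run, 17 genes were at least 1 above untreated in tumor 4, and 11, 15, 14 and 20 in tumors 1, 2, 3 and 5.

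Genes beyond Mrps33 show the different ends. Ssbp1, a mitochondrial DNA-binding protein, was at 28.2, 22.6 and 24.4 FPKM in batch 2, against 33.1, 225, 142, 38.0 and 137 in batch 1, and Agk, an acylglycerol kinase, was at 13.3, 11.1 and 11.7 FPKM in batch 2, against 14.3, 66.5, 42.5, 14.2 and 45 in batch 1. Both, chosen after their values were seen, were high in batch 1 tumors 2, 3 and 5 and near the batch 2 level in tumors 1 and 4. Neither was called (log2 differences -1.80 ± 0.61, adjusted p = 0.122, and -1.28 ± 0.50, adjusted p = 0.159). Over the 23-gene run, the median difference from untreated tumors was -0.15 to 0.06 in batch 2 resistant tumors and 0.68 to 1.97 in those of batch 1. It was -0.06 to -0.00 in large and -0.03 to 0.12 in small anti-PD-L2 tumors, 0.05 to 0.23 in residual and -0.02 to 0.09 in regressing tumors.

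Output genes of the MAPK pathway went both ways beside the fall of Braf. Of 20 tested MAPK output genes 1 rose, 2 fell and 17 were not called, with a median of 0.03; over all genes 4.43% were called. The list held 0 called genes without batch 1 tumor 3 or 5 or batch 2 tumor 1, 1 without batch 1 tumor 2, and 3 higher and 2 lower without batch 2 tumor 2 or 3. Their summed FPKM overlapped, at 2706, 1759 and 2551 in batch 2 and 1938, 2244, 2684, 2016 and 2165 in batch 1. Dusp6, the phosphatase that ERK induces against itself, was at 430, 271 and 349 FPKM in batch 2, against 257, 213, 215, 227 and 194 in batch 1. The sets did not overlap, yet the gene missed the threshold (0.64 ± 0.16, adjusted p = 0.0591), and it passed after median-of-ratios scaling, with library weights and without batch 2 tumor 2. For Spry4, another feedback inhibitor, the log2 difference was 0.52 ± 0.30 (adjusted p = 0.323).

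Within the MAPK list, Egr1, an early response transcription factor, rose to 381, 182 and 302 FPKM in batch 2, against 119, 92.3, 150, 67.2 and 91.2 in batch 1 (1.45 ± 0.30, adjusted p = 0.035). Dusp4, a nuclear phosphatase of ERK, fell to 51.3, 54.9 and 45.5 FPKM in batch 2, against 112, 74.0, 113, 79.1 and 100 in batch 1 (-0.89 ± 0.17, adjusted p = 0.0273). Ier3, an early response gene, fell to 74.5, 138 and 141 FPKM in batch 2, against 233, 528, 652, 362 and 523 in batch 1 (-1.92 ± 0.35, adjusted p = 0.0256). These 3 calls were lost when single tumors were left out, with adjusted p-values of up to 0.12 for Egr1 (without batch 2 tumor 1 or any batch 1 tumor), 0.0913 for Dusp4 (without batch 1 tumor 3 or 5, or batch 2 tumor 1) and 0.0914 for Ier3 (without batch 1 tumor 2, 3 or 5, or batch 2 tumor 1). Of the 14 immediate early genes 0 were called by limma, 6 had an unadjusted p below 0.05 and the median was 0.29. That count was 1 lower without batch 1 tumor 1, 3 higher without batch 2 tumor 2, and 2 higher and 1 lower without batch 2 tumor 3. Of the 7 tested EGF family ligands and ERBB receptors 1 fell: Nrg1, a ligand of ERBB3 and ERBB4 (-1.56 ± 0.28, adjusted p = 0.0234; up to 0.0914 without batch 1 tumor 2 or 3, or batch 2 tumor 1). Areg, which encodes amphiregulin, had a log2 difference of -1.20 (adjusted p = 0.187).

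Wnt5a, a secreted Wnt ligand tied to invasive melanoma and chosen after its values were seen, was among the falls that no single tumor decided. It was at 8.77, 8.91 and 4.65 FPKM in batch 2, against 50.4, 52.1, 71.6, 90.1 and 67.5 in batch 1, without overlap (-3.01 ± 0.25, adjusted p = 0.00154). Its level was 22.6 to 36.4 FPKM in untreated, 9.83 to 13.2 in regressing and 1.97 to 14.6 in residual tumors. Cdh2, which encodes N-cadherin, was the 1 called member of the 20 mesenchymal transition genes, at 12.3, 16.6 and 27.2 FPKM in batch 2, against 39.3, 55.2, 54.2, 41.8 and 47.1 in batch 1 (-1.36 ± 0.23, adjusted p = 0.021; up to 0.0813 without batch 1 tumor 2, 3 or 5, or batch 2 tumor 1). That list's median was -0.15. Axl, a receptor kinase of drug-tolerant melanoma cells, had a difference of 0.15 (adjusted p = 0.623).

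**Figure D2:**
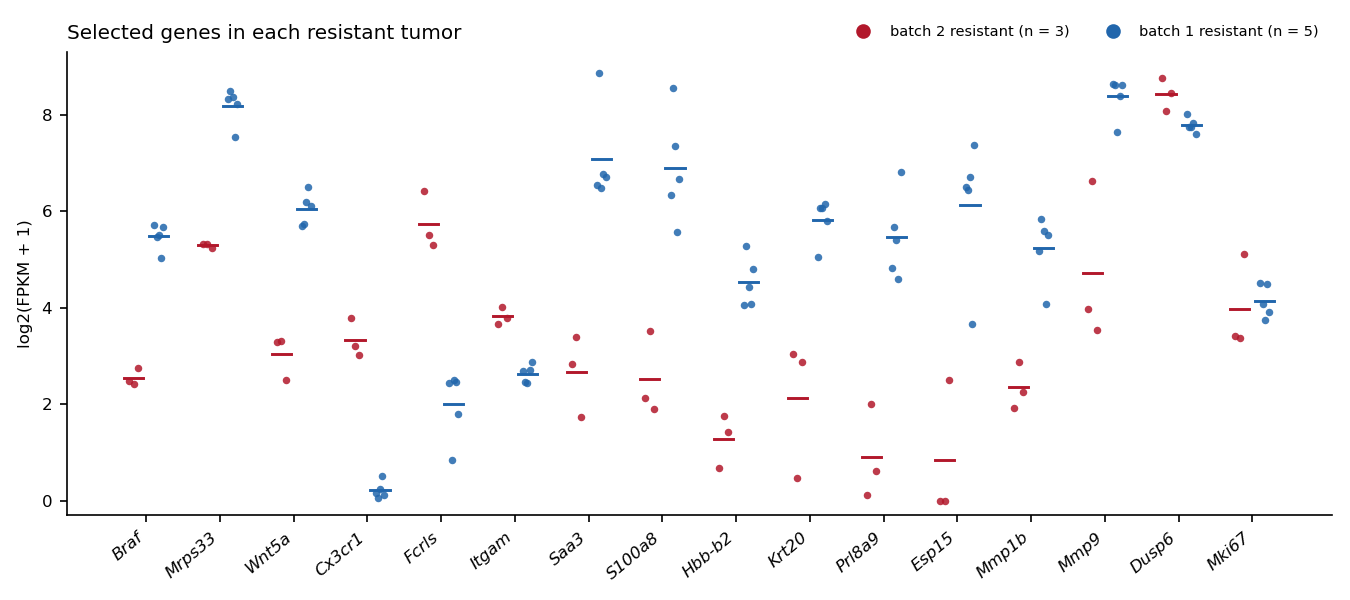
Values of 16 genes in each resistant tumor, as log2(FPKM + 1); red points are the 3 batch 2 tumors, blue points the 5 batch 1 tumors, and lines are group means. For all genes shown but Mki67 the points of the 2 sets do not overlap.

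Macrophage genes were prominent among the rises. Of 17 tested macrophage markers 7 rose and 0 fell, with a median of 1.41 against -0.06 over all genes. Over all genes 1.3% were called higher. Of the 17 markers, 14 had positive differences and 3 negative ones. The negative ones were Cd163 (-1.40), Mrc1 (-0.42) and Cd14 (-0.23), which were not called. The summed level of the list was 1543, 1815 and 691 FPKM in batch 2, against 620, 411, 470, 470 and 426 in batch 1. Batch 2 tumor 3 lay just above the highest batch 1 tumor, and the other batch 2 tumors well above it. Without batch 2 tumor 1 the list held 2 called genes, and without batch 1 tumors 2, 3 or 5 it held 4 each. Without batch 2 tumor 3 it held 12.

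Cx3cr1, the fractalkine receptor of monocytes and tissue macrophages, was at 12.8, 8.28 and 7.12 FPKM in batch 2, against 0.12, 0.0406, 0.19, 0.426 and 0.0807 in batch 1 (3.12 ± 0.20, adjusted p = 0.000697). Fcrls, an Fc receptor-like protein of macrophages, was at 85, 44.2 and 38.5 FPKM in batch 2, against 4.44, 0.806, 4.70, 4.51 and 2.49 in batch 1 (3.73 ± 0.42, adjusted p = 0.00494). In the batch 1 resistant tumors Cx3cr1 was below every other tumor of the series: it was at 1.92 to 3.99 FPKM in residual, 6.47 to 30.2 in regressing and 5.27 to 30.3 in untreated tumors. Itgam, which encodes CD11b, was at 11.6, 15.2 and 12.8 FPKM in batch 2, against 5.42, 4.50, 4.43, 5.58 and 6.36 in batch 1 (1.19 ± 0.14, adjusted p = 0.00633). These 3 genes passed without each single tumor.

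Other macrophage genes depended on a tumor. Emr1, which encodes F4/80, was at 18.8, 19.7 and 11.2 FPKM in batch 2, against 5.14, 2.83, 5.28, 4.78 and 3.46 in batch 1 (1.72 ± 0.23, adjusted p = 0.0101). Lyz2, the lysozyme of myeloid cells, had a log2 difference of 1.96 ± 0.28 (adjusted p = 0.0115). Without batch 2 tumor 1 the adjusted p was 0.0605 for Emr1 and 0.0627 for Lyz2. C1qa, a complement subunit made by macrophages and chosen after its values were seen, had a difference of 1.69 ± 0.37 (adjusted p = 0.0419). It was no longer called without any single batch 1 tumor or batch 2 tumor 1 or 2, with adjusted p-values of up to 0.134.

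The remaining immune genes among the 15 largest rises were Ly86 (2.68), Cd72 (2.54), Pld4 (2.52), Lst1 (2.34), Clec4a1 (2.34), Ccl12 (2.33), Slamf9 (2.29) and Ms4a7 (2.21), with log2 differences in parentheses and adjusted p-values of 0.00983 to 0.0362. Each was highest in batch 2 tumor 2. All of them lost the call without batch 2 tumor 1, with adjusted p-values of up to 0.111, and Pld4 only without that tumor. The other 7 also lost it without batch 1 tumor 2, 3 or 5, Cd72 without batch 1 tumor 1, and Ccl12 without batch 1 tumor 4 or batch 2 tumor 2.

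A pair of macrophage-linked genes went the other way. F13a1, the coagulation factor XIII A chain made by a subset of tissue macrophages, was at 12.8, 10.2 and 12.5 FPKM in batch 2, against 37.9, 23.2, 31.0, 28.4 and 26.3 in batch 1 (-1.23 ± 0.16, adjusted p = 0.00916), and passed without each single tumor. Chil3, a chitinase-like protein that alternatively activated macrophages and neutrophils make, fell to 0.934, 3.71 and 3.46 FPKM in batch 2, against 18.4, 24.1, 26.0, 20.6 and 21.9 in batch 1 (-2.74 ± 0.28, adjusted p = 0.00494), and also passed without each single tumor. They were the 2 called members of 9 tested genes of alternatively activated macrophages, whose median was -0.39, and without batch 2 tumor 3 another 2 were called higher. The 6 tested MHC class II genes had a median of 1.29 with 0 called by limma and 2 with an unadjusted p below 0.05, and their sums were 961, 1673 and 136 FPKM in batch 2, against 172, 179, 220, 269 and 372 in batch 1. Batch 2 tumor 3 was below every batch 1 tumor, and without it all 6 genes were called higher. Il10, an anti-inflammatory cytokine, overlapped between the sets (-0.93 ± 0.43, adjusted p = 0.231).

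The summed levels of neutrophil and acute phase genes were lower in every batch 2 tumor than in any batch 1 tumor. Of 14 tested neutrophil genes 6 fell and 0 rose (median -1.13), and of 8 tested acute phase proteins and CXC chemokines 2 fell and 0 rose (median -2.53). Over all genes 3.13% were called lower. Among the uncalled neutrophil genes, Csf3r (-0.09) and Trem1 (-0.16) differed little, and Il1b (0.30) was the 1 with a positive difference. Cxcr2 and Mmp8 had batch 2 means of 0.379 and 0.205 FPKM and reached the filter through their batch 1 values. The neutrophil sums were 133, 125 and 136 FPKM in batch 2, against 192, 809, 491, 146 and 361 in batch 1. The acute phase sums were 52.0, 31.8 and 12.6 FPKM in batch 2, against 169, 1145, 335, 199 and 195 in batch 1. Batch 1 tumor 2 was highest in both sums. The neutrophil list held 0 called genes without batch 2 tumor 1, 1 each without batch 1 tumor 3 or 5, 3 without batch 1 tumor 2, and 7 without batch 1 tumor 4. The acute phase list held 1 without batch 2 tumor 1 or 2 or batch 1 tumor 2, 3 or 5.

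S100a8, a subunit of calprotectin that neutrophils store, was at 3.38, 10.4 and 2.73 FPKM in batch 2, against 79.5, 373, 162, 46.8 and 101 in batch 1 (-4.38 ± 0.63, adjusted p = 0.0137; 0.0725 without batch 2 tumor 1). Its partner S100a9 had a difference of -3.55, Lcn2, an iron-trapping protein of granules, one of -3.34, and Cxcr2, the receptor for neutrophil-attracting chemokines, one of -1.18 (adjusted p-values 0.0186 to 0.0273). Saa3, an acute phase protein also made by macrophages, was at 6.13, 9.56 and 2.35 FPKM in batch 2, against 92.0, 463, 88.5, 109 and 103 in batch 1 (-4.42 ± 0.58, adjusted p = 0.00916), and passed without each single tumor. Cxcl1, a ligand of Cxcr2, was at 0.179, 0.753 and 5.07 FPKM in batch 2, against 9.31, 114, 77.0, 29.3 and 11.7 in batch 1 (-3.8 ± 0.88, adjusted p = 0.0483). S100a9 and Cxcl1 lost the call without batch 1 tumor 2, 3 or 5 or batch 2 tumor 1, Cxcl1 also without batch 1 tumor 4 or batch 2 tumor 2, and Lcn2 and Cxcr2 without batch 1 tumor 3 or 5 or batch 2 tumor 1. Their adjusted p-values then reached 0.0951, 0.148, 0.0901 and 0.0813 for S100a9, Cxcl1, Lcn2 and Cxcr2.

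The summed level of red cell transcripts was lower in every batch 2 tumor than in any batch 1 tumor. The 6 tested erythroid genes had 4 falls, 0 rises and a median of -3.0, and sums of 7.07, 19.9 and 10.3 FPKM in batch 2, against 117, 249, 369, 162 and 224 in batch 1. Over all genes 3.13% were called lower. The sets did not overlap for 4 of the 6 genes. Hba-a2 (-1.33, adjusted p = 0.541) and Hbb-bs (-4.52, adjusted p = 0.109) were not called. Hbb-b2, a beta globin, was at 0.593, 2.36 and 1.67 FPKM in batch 2, against 15.7, 38.1, 20.5, 15.9 and 26.9 in batch 1 (-3.25 ± 0.33, adjusted p = 0.00494), and passed without each single tumor. Alas2, the heme synthesis enzyme of red cell precursors, had a difference of -1.87 (adjusted p = 0.0234). It lost the call without batch 1 tumor 2 or 5 or batch 2 tumor 1 (up to 0.0913). Hbb-b1 and Hba-a1, at -3.07 and -2.94, lost theirs as well, Hbb-b1 without any tumor but batch 1 tumor 2 and Hba-a1 without batch 1 tumor 2 or 3 or batch 2 tumor 1 (up to 0.137 and 0.105). Near-identical globin copies share reads, so their single levels are uncertain. The erythroid list held 1 called gene without batch 2 tumor 1 and 2 without batch 1 tumor 2, 3 or 5.

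**Figure D3:**
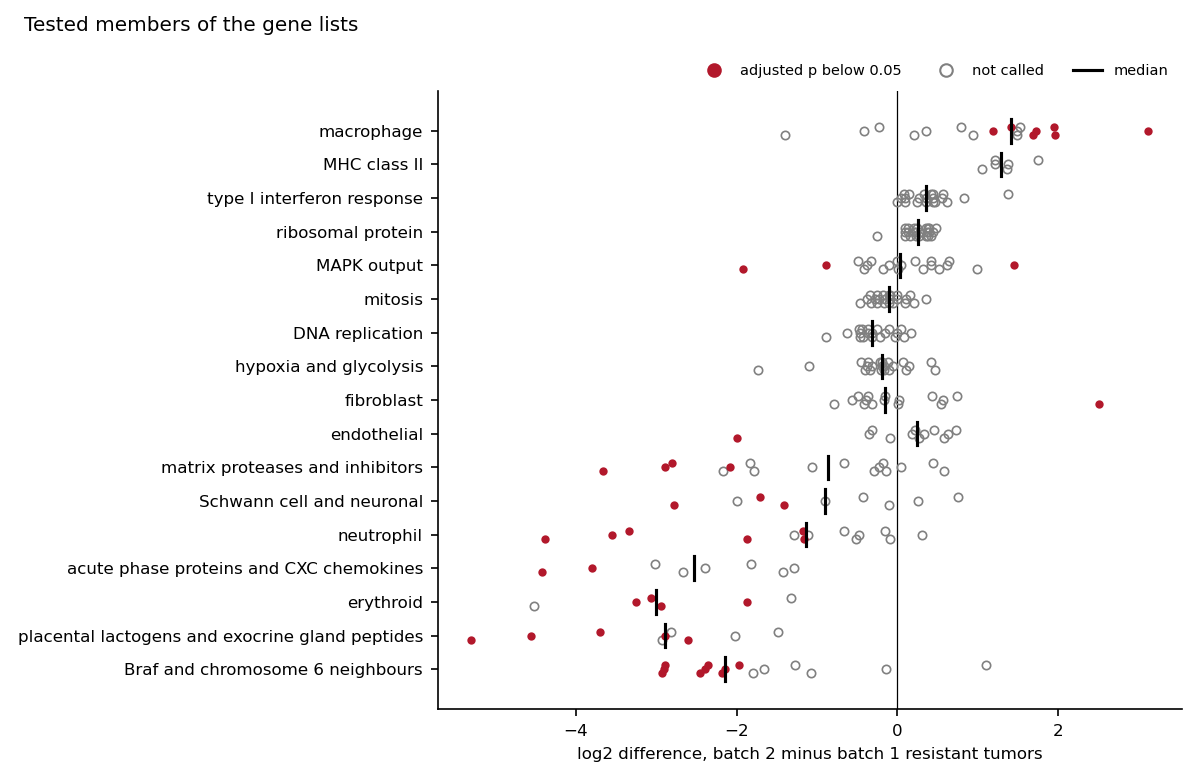
Log2 differences between batch 2 and batch 1 resistant tumors for the tested members of 17 gene lists; filled points passed an adjusted p of 0.05 and bars are list medians. The macrophage list lies mostly to the right of 0, the acute phase, erythroid, placental and Braf lists mostly or wholly to the left, and the MAPK, mitosis and replication lists around 0.

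Genes of the prolactin family and the exocrine gland peptides, which belong to placenta and glands and not to melanocytes, were lower in batch 2. Of the 13 genes on that list, drawn up from earlier results of these tumors, 9 were tested. Of these 9, 5 fell and the median was -2.89. As the list came from these tumors, its count and median are no independent test. The expression filter used the mean over both sets, so a gene near 0 in batch 2 was tested only if high in batch 1. Esp16, with a batch 2 mean of 0.0595 FPKM, reached the filter through its batch 1 values (mean 6.09 FPKM). Prl8a9 was at 0.0822, 3.02 and 0.527 FPKM in batch 2, against 27.5, 50.2, 41.4, 23.3 and 112 in batch 1 (-4.56 ± 0.55, adjusted p = 0.00637), and passed without each single tumor. Esp15 was listed at 0 in batch 2 tumors 1 and 2 and at 4.70 FPKM in tumor 3, against 89.9, 86.4, 103, 11.7 and 164 FPKM in batch 1 (-5.30 ± 0.87, adjusted p = 0.0193; up to 0.0869 without batch 1 tumor 2, 3 or 5 or batch 2 tumor 1). No batch 2 tumor reached the lowest batch 1 value of either gene.

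Neighbouring members moved with them. Prl6a1 and Prl2a1, chosen after their values were seen, had differences of -2.89 and -2.36, and a run of 5 tested prolactin genes on chromosome 13 from Prl3d1 to Prl2a1 had 3 called members and a median of -2.36. Esp16 had a difference of -2.61 (adjusted p = 0.0149; 0.073 without batch 2 tumor 1). Prl6a1 and Prl2a1 lost the call without batch 1 tumor 2, 3 or 5 or batch 2 tumor 1, with adjusted p-values of up to 0.0848 and 0.0913. Members of both families resemble each other, so the split of reads between them is uncertain. Krt20, a keratin of gut and Merkel cells, was at 7.26, 0.38 and 6.36 FPKM in batch 2, against 32.0, 66.3, 66.0, 69.7 and 54.9 in batch 1 (-3.7 ± 0.56, adjusted p = 0.015), and passed without each single tumor. The list held 2 called genes without batch 2 tumor 1 and 3 without batch 1 tumor 2, 3 or 5.

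Several matrix metalloproteinases fell too, most of them from a cluster on chromosome 9. Of 16 matrix proteases and inhibitors 4 fell and 0 rose, with a median of -0.86. Over all genes 3.13% were called lower. Of the 16, 0 were called without batch 2 tumor 1 and 1 without batch 1 tumor 2 or 5. Without batch 1 tumor 4 or batch 2 tumor 2 or 3, 5 were called. Mmp1b was at 2.8, 6.38 and 3.76 FPKM in batch 2, against 35.3, 56.3, 47.4, 15.8 and 44.4 in batch 1 (-2.89 ± 0.39, adjusted p = 0.00983; 0.0599 without batch 2 tumor 1). Mmp1a, its neighbour and close copy, overlapped between the sets (-2.08 ± 0.47, adjusted p = 0.0447; up to 0.14 without batch 1 tumor 1, 2, 3 or 5 or batch 2 tumor 1 or 3). Reads can be shared between these collagenase genes, so the split between them is uncertain. Mmp12, the macrophage elastase, had a difference of -2.81 ± 0.46 (adjusted p = 0.0193; up to 0.0628 without batch 1 tumor 2 or 5 or batch 2 tumor 1). Mmp8, the neutrophil collagenase, chosen after its values were seen, had one of -1.16 (adjusted p = 0.0365; up to 0.119 without batch 1 tumor 1, 3 or 5 or batch 2 tumor 1 or 2). The run from Mmp13 to Mmp8 held 7 tested genes, all negative, 4 called, with a median of -2.08. Mmp9, a gelatinase that lies elsewhere, was at 14.7, 97.6 and 10.7 FPKM in batch 2, against 396, 389, 200, 336 and 389 in batch 1 (-3.66 ± 0.62, adjusted p = 0.021; up to 0.0901 without batch 1 tumor 2 or 5 or batch 2 tumor 1). Plau, the urokinase gene, had a difference of -0.66 (adjusted p = 0.0572).

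The promoters of the collagenase pair are shown because the AP-1 site before such genes is a classic landing place of the factors that ERK feeds. They are the 250 bases before each gene's start, from RefSeq on GRCm38.p6, with the AP-1 letters TGANTCA in capitals.
Mmp1b promoter, chr9:7388027-7388276, minus strand: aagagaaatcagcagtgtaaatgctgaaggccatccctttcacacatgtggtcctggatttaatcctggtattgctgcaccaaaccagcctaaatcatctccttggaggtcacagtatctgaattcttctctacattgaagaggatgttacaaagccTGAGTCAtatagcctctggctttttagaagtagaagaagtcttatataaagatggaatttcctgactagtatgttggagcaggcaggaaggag
Mmp1a promoter, chr9:7463891-7464140, plus strand: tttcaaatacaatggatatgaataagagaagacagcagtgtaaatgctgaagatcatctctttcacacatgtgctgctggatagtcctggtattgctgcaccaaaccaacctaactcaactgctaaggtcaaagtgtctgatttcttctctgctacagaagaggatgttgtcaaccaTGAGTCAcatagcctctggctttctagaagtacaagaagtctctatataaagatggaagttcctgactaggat
The letters stand 93 bases before the start of Mmp1b and 73 before that of Mmp1a. They read the same on both strands, and occur in the 250 bases before 7.82% of all 27025 genes in the promoter table, before 19 of 276 genes called lower (6.88%) and before 6 of 118 called higher (5.08%). A match of letters shows no binding.

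Further named falls were Mamdc2 (-3.41), Gpr149 (-3.33), Ibsp (-3.27), which encodes bone sialoprotein, and Phlda2 (-3.14), an imprinted growth inhibitor of the placenta. Phlda2 was at 2.97, 2.82 and 1.77 FPKM in batch 2, against 8.18, 36.8, 50.9, 36.0 and 39.7 in batch 1 (adjusted p = 0.0186; up to 0.0805 without batch 1 tumor 2 or 5 or batch 2 tumor 1). It was the 1 called gene of 6 tested imprinted genes of distal chromosome 7, whose median was -0.11. Gpr149 lost the call without batch 2 tumor 1 (0.073), Mamdc2 without batch 1 tumor 2, 3 or 5 or batch 2 tumor 1 (up to 0.0813), and Ibsp without any tumor but batch 2 tumor 2 (up to 0.145). Of 9 tested Schwann cell and neuronal genes 3 fell, with a list median of -0.90, against 3.13% called lower over all genes. The 3 were Gap43 and Nefl, neuronal genes of axons, and Snap25 of synapses. Their differences were -2.78, -1.71 and -1.41 (adjusted p = 0.0169, 0.0264 and 0.0363). That list held 0 called genes without batch 2 tumor 1 or batch 1 tumor 3, and 1 without batch 1 tumor 2 or 5. Cdh5, a junction protein of vessels, was the 1 fall of 12 endothelial genes, at 11.9, 49.4 and 21.0 FPKM in batch 2, against 88.0, 118, 109, 96.4 and 76.7 in batch 1 (-2.0 ± 0.37, adjusted p = 0.0268; up to 0.0813 without batch 1 tumor 2, 3 or 5 or batch 2 tumor 1). The endothelial median was 0.25.

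Other named rises lay outside the immune lists. Lum, a collagen-binding proteoglycan, was the 1 rise of 16 fibroblast genes, at 328, 84.4 and 106 FPKM in batch 2, against 26.0, 19.5, 29.6, 18.3 and 30.7 in batch 1 (2.51 ± 0.41, adjusted p = 0.0186; 0.0531 without batch 1 tumor 2). The fibroblast median was -0.16. Penk, the enkephalin precursor, was at 128, 102 and 22.5 FPKM in batch 2, against 11.3, 3.16, 9.31, 2.25 and 1.75 in batch 1 (3.64 ± 0.68, adjusted p = 0.0268; up to 0.103 without batch 1 tumor 2, 3 or 5 or batch 2 tumor 1 or 2). Pdlim4, a cytoskeletal adaptor, had a difference of 3.25 (adjusted p = 0.0172; 0.0805 without batch 2 tumor 1). Ptn, the growth factor pleiotrophin, was at 10.8, 12 and 23.3 FPKM in batch 2, against 5.17, 2.20, 1.75, 1.97 and 1.65 in batch 1 (2.21 ± 0.33, adjusted p = 0.0149), and passed without each single tumor. It lies on chromosome 6 and is the first gene of the running-median stretch of batch 1 tumor 5. Ptn itself was not raised in that tumor, at 1.65 FPKM against an untreated mean of 10.1.

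Proliferation and metabolism genes held no called member with all 8 tumors in the fit. By limma 0 of 23 mitosis genes (median -0.11), 0 of 20 replication genes (-0.32), 0 of 22 hypoxia and glycolysis genes (-0.19), 0 of 22 oxidative phosphorylation genes (0.03) and 0 of 24 ribosomal protein genes (0.25) passed. Those with an unadjusted p below 0.05 were 0, 2, 3, 0 and 6 in these lists. Without batch 2 tumor 3, 10 of 20 replication genes (median -0.57) and 4 of 23 mitosis genes (-0.57) were called lower, and 7 of 24 ribosomal protein genes (0.40) higher. Without batch 2 tumor 2, 1 hypoxia and glycolysis gene was called lower. Mki67, a marker of cycling cells, was at 9.60, 9.42 and 33.6 FPKM in batch 2 and 21.8, 15.8, 12.4, 21.4 and 14.1 in batch 1 (-0.18 ± 0.39, adjusted p = 0.821). Batch 2 tumor 3 was above every batch 1 tumor and the other batch 2 tumors were below. None of the 14 T cell or 9 B cell genes reached the expression filter, and their sums were 1.89 to 10.8 and 0.543 to 2.86 FPKM in batch 2, against 3.97 to 8.24 and 0.509 to 2.54 in batch 1. Cd8a was at 0.0394 to 0.322 FPKM in batch 2 and 0.376 to 0.757 in batch 1, too low to be tested.

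Interferon genes were led by a single tumor. The 21 type I interferon genes had sums of 192, 1571 and 67.1 FPKM in batch 2, against 668, 331, 56.0, 203 and 120 in batch 1, with 0 called by limma, 0 with an unadjusted p below 0.05 and a median of 0.36. Batch 2 tumor 2 was above all others, and it also had the highest sum of skeletal muscle genes, at 225 FPKM against 8.23 and 7.29 in the other batch 2 tumors and 4.02 to 52.0 in batch 1. The part of that muscle RNA in the results was not tested. Cd274, which encodes PD-L1, had a difference of 0.38 (adjusted p = 0.667), and Pdcd1lg2, which encodes PD-L2, was at 0.732 to 1.88 FPKM in batch 2 and at 0 to 0.0738 in batch 1, below the filter. Batch 2 tumor 1 stood apart in another way: Spp1, the osteopontin gene, was listed at 0 there, against 6384 and 5163 FPKM in the other batch 2 tumors and 5164 to 7587 in batch 1 (-4.20 ± 2.51, adjusted p = 0.345). A listed 0 can be a failed estimate.

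A short transcript took a large share of the FPKM sum in batch 2. FPKM are scaled by transcript length, so this is not its share of the reads. Mir2137, chosen after its values were seen, held 23.8%, 36.5% and 24.7% of the FPKM sum in batch 2, against 0, 6.94%, 12.8%, 0 and 17.6% in batch 1 (exact permutation test, two-sided, p = 0.0357, the smallest that 56 arrangements allow; 0.0714 after adjustment over the 4 library measures). The FPKM sums were 703435 to 948690 in batch 2 and 559101 to 688972 in batch 1 (exact p = 0.0357, adjusted 0.0714), and without Mir2137 the exact p was 0.5. Between 11081 and 11532 genes reached 1 FPKM in batch 2, and between 11280 and 11455 in batch 1 (exact p = 0.25). By limma Mir2137 was not called (log2 difference 8.08, adjusted p = 0.299).

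Of 12 tested short RNA and histone transcripts 3 rose, with a median of -0.05. Rmrp, the RNA of the RNase MRP particle, was at 39.9, 31.2 and 42.4 FPKM in batch 2, against 3.26, 3.73, 4.70, 9.99 and 5.80 in batch 1 (2.65 ± 0.29, adjusted p = 0.00494), and passed without each single tumor. Mir6236 was at 12344, 13490 and 7983 FPKM in batch 2, against 3742, 2741, 2970, 3851 and 6665 in batch 1 (1.54 ± 0.31, adjusted p = 0.0314). Rpph1, the RNA of RNase P, had a difference of 1.57 ± 0.35 (adjusted p = 0.0424). Mir6236 and Rpph1 both lost the call without batch 1 tumor 1, 2, 3 or 4 or batch 2 tumor 1 or 2, and Rpph1 also without batch 1 tumor 5, with adjusted p-values of up to 0.108 and 0.135. The mature sequences annotated at the microRNA symbols are shown because these symbols have such high FPKM. They come from RefSeq on GRCm38.p6, with the seed in capitals.
mmu-miR-2137, chrX:72992113-72992133, plus strand: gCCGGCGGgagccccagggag
mmu-miR-6236, chr9:110281353-110281371, plus strand: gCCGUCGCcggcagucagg
The 2 seeds differ, and both sequences are far shorter than the fragments of a poly(A) library. Which transcripts the reads came from was not tested.

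A few genes set apart all of batch 2 from all of batch 1. For 36 tested genes (0.312%), every one of the 7 batch 2 tumors lay above (4) or below (32) every one of the 18 batch 1 tumors of any stage. Of the 511 called genes 10 were among them (1.96%): Ggcx, the gamma-carboxylase of clotting factors, above, and Alas2, Hbb-b2, Fbxo32, Itga7, Nuak1, Fam101b, Rsrc1, Znf512b and 2810474O19Rik below. These were chosen after their values were seen. Sex-linked transcripts below the filter also did so: Xist, the RNA that silences an X chromosome in female cells, was at 0.00552 to 0.0223 FPKM in the 7 batch 2 tumors and 0.688 to 13.7 in the 18 of batch 1, and Eif2s3y, a Y-linked translation factor, was at 1.21 to 10.2 FPKM in batch 2 and 0 to 0.0252 in batch 1. The Y-linked genes Ddx3y, Uty and Kdm5d were present in both sets of resistant tumors and overlapped (adjusted p = 0.782 to 0.953). The sex of the mice is not given in the labels.

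**Figure D4:**
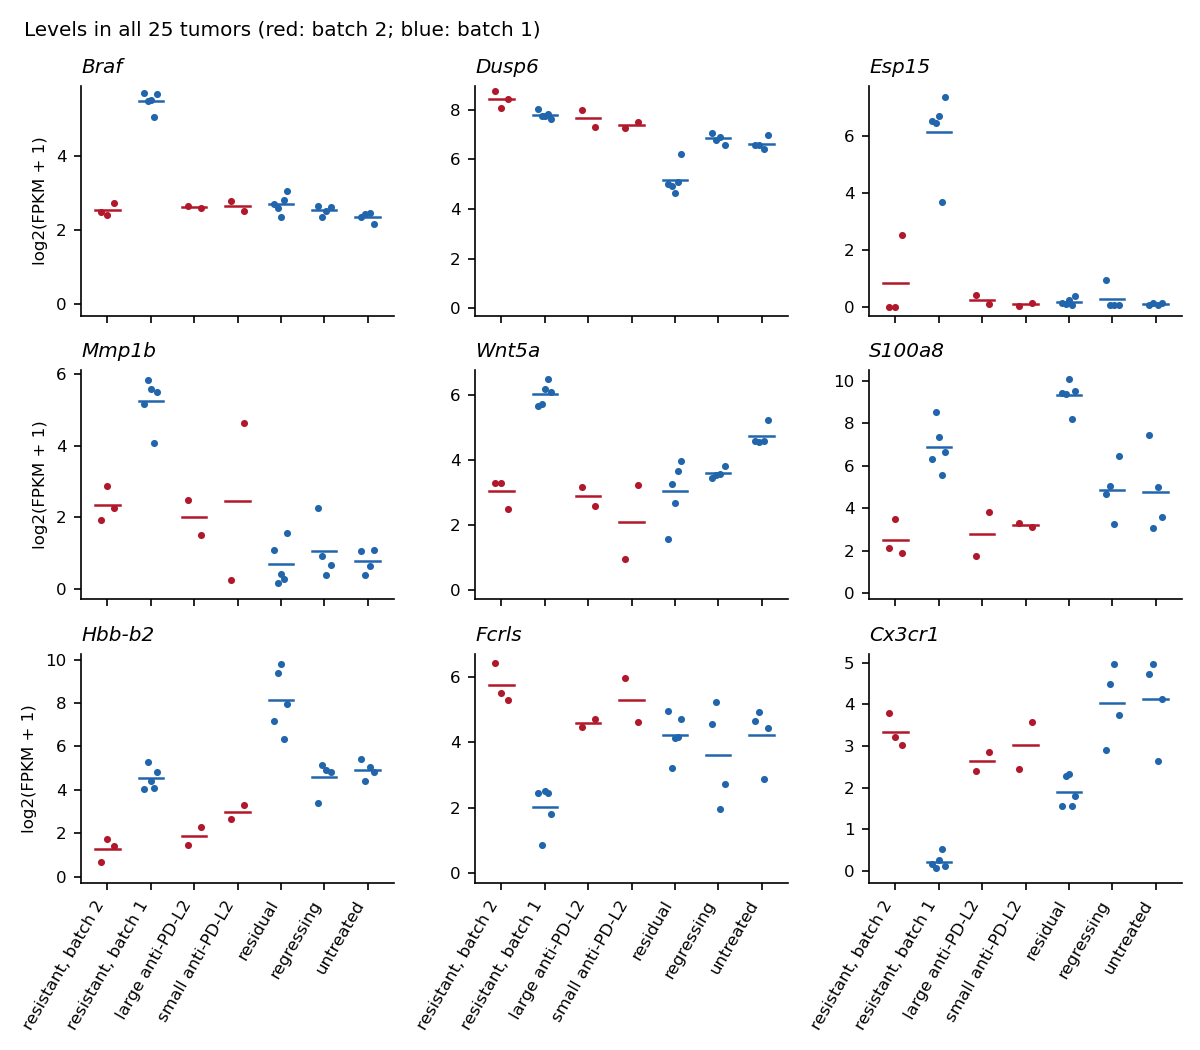
Levels of 9 genes in all 25 tumors by group, as log2(FPKM + 1), with points for tumors and lines for means; red is batch 2 and blue is batch 1. Braf, Wnt5a, Mmp1b and Esp15 are highest in batch 1 resistant tumors, Cx3cr1 and Fcrls have their lowest means there, and Hbb-b2 and S100a8 are low in all batch 2 groups.

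A second pair of groups crosses the batches without sharing a tumor with the first: small anti-PD-L2 tumors of batch 2 (n = 2) and residual tumors of batch 1 (n = 5). They differ in the antibody as well as the batch, and the 2 cannot be told apart. Of 12434 genes 1136 (9.14%) were called, 489 (3.93%) higher and 647 (5.2%) lower in small anti-PD-L2 tumors. Among the genes called higher in batch 2 resistant tumors, 149 were tested here; 4 were also called higher and 9 lower. The 4 are 2.68% of those 149 and 0.818% of the 489. Among the genes called lower, 330 were tested; 37 were also called lower and 6 higher. The 37 are 11.2% of those 330 and 5.72% of the 647.

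Neutrophil and red cell genes were among the falls found in both pairs. S100a8 was at 8.97 and 7.61 FPKM in small anti-PD-L2 tumors and 295 to 1104 in residual tumors (log2 difference -6.11, adjusted p = 0.00247), and Hbb-b2 was at 5.38 and 8.80 in small anti-PD-L2 tumors and 80.9 to 899 in residual tumors (-5.16, adjusted p = 0.0227). Saa3 had a difference of -4.44 (adjusted p = 0.0262) and Alas2 one of -4.36 (adjusted p = 0.00948). By contrast Braf, at 5.93 and 4.69 FPKM in small anti-PD-L2 tumors and 4.12 to 7.35 in residual tumors, had a difference of -0.05 (adjusted p = 0.873), and its list had 0 of 15 called by limma, with 4 at an unadjusted p below 0.05. Cx3cr1 had one of 1.12 (adjusted p = 0.0894) and Wnt5a one of -0.93 (adjusted p = 0.444). By limma 0 of the 17 macrophage genes were called there, 3 had an unadjusted p below 0.05, and their median was -0.48.

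**Figure D5:**
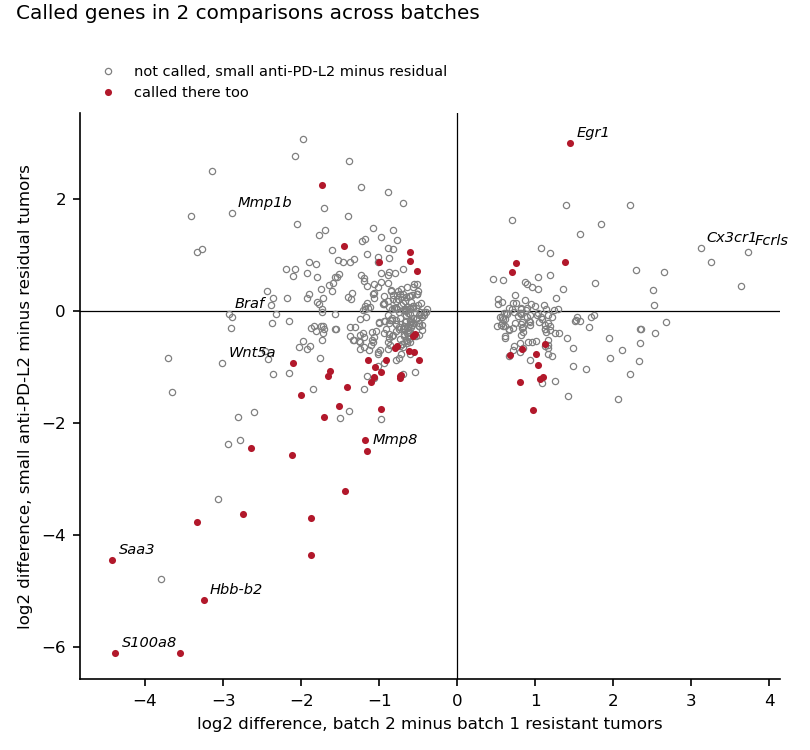
Genes called between batch 2 and batch 1 resistant tumors that were also tested between small anti-PD-L2 and residual tumors, with both log2 differences; filled points were called in both. S100a8, Saa3 and Hbb-b2 lie low on both axes, and Braf, far below 0 on the horizontal axis, lies near 0 on the vertical one.

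The difference between the 2 differences was tested in a fit of the 15 tumors. It was called for 1517 of 12196 genes (12.4%), and in the direction of the resistant tumors for 89 of the 150 genes called higher and for 144 of 354 tested genes called lower. These genes were selected on the difference between the resistant tumors, which is part of this test. Calls in that direction were thus favoured by the selection. The Braf difference was also known beforehand, so the values of Braf and its neighbours here are no independent test. For Braf the difference of the differences was -2.88 (adjusted p = 0.000149), for Mrps33 -2.78 and for Kdm7a -2.61. For Cx3cr1 it was 2.00 (adjusted p = 0.0117) and for Fcrls 2.66 (adjusted p = 0.0307). For S100a8, Saa3 and Hbb-b2 it was 1.73, 0.03 and 1.90, and not called (adjusted p = 0.192, 0.989 and 0.193). For Wnt5a it was -2.08 (adjusted p = 0.0981). Dusp6, at 153 and 180 FPKM in small anti-PD-L2 tumors and 24.2 to 74.2 in residual tumors, was called there at 2.21 (adjusted p = 0.0228), and the difference of its differences was -1.57 (adjusted p = 0.0315).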

How the data were processed

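RNA of 25 tumor biopsies was sequenced; per the labels' protocols, a mirVana kit gave the RNA, and unstranded TruSeq v2 libraries of its poly(A) fraction were read in pairs. The authors' deposited table gives FPKM for 23940 gene symbols. Per the submitters' processing notes, TopHat, TopHat2, Cuffnorm and Cuffdiff were used with the mm9 build; with versions and roles not given in the sources used here. No read counts were used: the depth behind a value is unknown, and intervals from counting cannot be had. In 3 of the 5 batch 1 resistant columns (tumors 2, 4 and 5) many values carry a digit more, as the mean of a pair has; the other 2 hold single values. An FPKM of exactly 0 can be a failed estimate.

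Genes averaging at least 1 FPKM in a fit's libraries were tested as log2(FPKM + 1) in limma 3.58.1 under R 4.3.3, with group terms and a variance trend. P-values were two-sided with Benjamini-Hochberg adjustment across every gene in the fit, and a gene was called below 0.05. Log2 differences are on that scale, with SE, and understate changes of genes with low values. The resistant tumors were fitted alone (8 libraries), small anti-PD-L2 and residual tumors alone (7), and the difference of the differences over these 15. Library measures were tested by exact permutation. The method was tested on simulated data.

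The genes, the 40 gene lists and the comparisons were chosen with earlier results of these data known. Lists are described by counts and medians beside all genes. Named are the 15 largest rises and 15 largest falls that were called and did not overlap, leaving out predicted genes, clone symbols, microRNAs, small nucleolar RNAs and antigen receptor segments, the 4 lowest adjusted p-values of each list, and a few fixed genes, of which 1 is not reported here. Other settings were a pseudocount of 0.1, no expression filter, median-of-ratios size factors, all 25 libraries in the fit, library weights, the large anti-PD-L2 tumors joined to batch 2, a replicate block, and each library left out. Fits with the single-value columns or with the mean-like columns of batch 1 alone were chosen after seeing the data. Gene order, promoters and microRNA sequences came from RefSeq on GRCm38.p6, where 11498 of the 11545 genes matched (10880 by current symbol). No coordinate of the table's own build was used. Tables and figures used matplotlib 3.10.9, pandas 2.3.3, scipy 1.17.1 and numpy 2.4.6 under Python 3.11.15.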

Additional observations from a re-analysis of the deposited data

Results flagged for a closer look

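In 15 of 124 groups of 4 or 5 tumors checked, 1 tumor lay far from the others. Chance alone gives about 1 in 20 where groups are independent. These groups are not, as Saa3 and Lyz2 also enter the sums of their lists, and an excess over chance was not tested. Among batch 1 resistant tumors, tumor 1 was highest in Tbxas1 (1.75 FPKM), Ptn (5.17), Pdlim4 (10.2), Lyz2 (109) and the macrophage list (sum 620). Tumor 2 was highest in Saa3 (463 FPKM) and the acute phase list (sum 1145), tumor 3 in the skeletal muscle list (sum 52.0), tumor 4 in Cd72 (5.08) and tumor 5 in Mir6236 (6665). Tumor 5 was lowest in Cdkn2a (4.95 FPKM). In the other groups, residual tumor 5 was highest in Dusp6 (74.2 FPKM), regressing tumor 1 in Esp15 (0.938), untreated tumor 4 in Wnt5a (36.4) and untreated tumor 1 in S100a8 (174).

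For 48 of 87 named genes the batch 2 minus batch 1 difference in resistant tumors differed from that between small anti-PD-L2 and residual tumors by the test of the difference itself. Over all genes 1517 of 12196 (12.4%) did. Many named genes were chosen for their difference between the resistant tumors, which is part of this test. A larger share among them was thus favoured by the choice. On chromosome 6 the called genes were Braf (-2.88), Mrps33 (-2.78), Hipk2 (-2.59), Kdm7a (-2.61), Slc37a3 (-2.49), Mkrn1 (-1.74), Dennd2a (-2.42), Adck2 (-1.44) and Ndufb2 (-1.97). Among MAPK and EGF family genes they were Dusp6 (-1.57), Spry4 (-1.91), Nrg1 (-1.50), Areg (-5.21) and Hbegf (-3.31). Of the placental, exocrine and keratin genes they were Esp15 (-5.22), Esp16 (-2.60), Prl8a9 (-4.54), Prl6a1 (-2.95), Prl2a1 (-2.36), Krt20 (-2.86) and Phlda2 (-5.65). Of the matrix and adhesion genes they were Mmp1a (-4.84), Mmp1b (-4.63), Plau (-2.13), Ibsp (-4.38) and Cdh2 (-1.58), with Mamdc2 (-5.11), Gpr149 (-4.40) and Il10 (-2.55). Positive values were found for myeloid genes that rose in batch 2 resistant tumors: Fcrls (2.66), Cx3cr1 (2.00), Ly86 (2.87), Emr1 (1.83), Lyz2 (2.8), C1qa (1.98), Ms4a7 (3.33), Ccl12 (3.23), Cd72 (2.94), Pld4 (2.42), Lst1 (2.66) and Clec4a1 (2.91). Penk (3.21), Mir6236 (1.64), Lars2 (1.48) and Xist (1.44) also had positive values. For Cxcr2 (1.12) and Alas2 (2.49) the positive value stands for a smaller fall, as both fell in both pairs and less between the resistant tumors. Eif2s3y had -1.70. Residual and small anti-PD-L2 tumors differ in the antibody as well as the batch, and these cannot be told apart.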

How the results depend on the processing

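The count of genes called between the resistant tumors was 511. It was 588 with a pseudocount of 0.1, 274 with no filter on low values, 454 with size factors, 1211 with all 25 libraries in the fit, 401 with library weights and 1198 with the large anti-PD-L2 tumors joined to batch 2. It was 5 with the single-value batch 1 columns alone and 98 with the mean-like columns alone, where fewer tumors entered. With single libraries left out it was 61 to 1433. Between small anti-PD-L2 and residual tumors the count of 1136 became 3031 with all 25 libraries, 2205 with library weights, and 201 to 1982 with single libraries left out. For the difference of differences 1517 became 369 to 2307. Same-numbered tumors of the 2 sets did not deviate together (correlations -0.04, -0.00 and 0.09), so the numbers pair no tumors; with a replicate block the 3 counts were 23, 0 and 723. No called gene named here reversed under any setting. Among uncalled genes, these did: Mki67 to 0.10 and 0.11 (without batch 2 tumor 1 or 2; range -0.75 to 0.11 with single libraries left out), Axl to -0.04 (without batch 2 tumor 1; range -0.04 to 0.31), Cdkn2a to -0.01 (replicate block; without batch 1 tumor 5, range -0.01 to 0.15) and -0.03 (single-value columns), and Cd274 to -0.14 (replicate block) and -0.52 (single-value columns). With size factors 37 of 38 list medians moved by less than the spread between tumors, and with a pseudocount of 0.1 35 did. The causes of these changes were not tested. The number of tumors and the unknown depth limit what could be detected.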

Other observations

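Lists not described above held few called genes between batch 2 and batch 1 resistant tumors. Of 10 CC chemokine genes 1 rose, Ccl12, with a median of 0.03, and of 11 bone matrix genes 1 fell, Ibsp, with a median of -0.01. By limma 0 genes were called among 9 mast cell (median 0.01), 16 MHC class I (0.20), 18 interferon gamma response (0.02), 8 cytotoxic lymphocyte (-0.17), 9 checkpoint (0.38), 8 pericyte (0.39), 9 skeletal muscle (0.58), 2 keratinocyte (0.16) and 5 adipocyte (1.27) genes. Those with an unadjusted p below 0.05 were 1, 1, 0, 1, 3, 1, 0, 0 and 1.

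The mast cell proteases split the batch 1 tumors. Mcpt1 was at 11.5, 13 and 10.3 FPKM in batch 2, against 0.565, 0.661, 115, 77.8 and 60.1 in batch 1, so that batch 1 tumors lay both below and above every batch 2 tumor. Mcpt2 was at 14.8, 9.65 and 7.45 FPKM in batch 2, against 0.149, 0.245, 29.8, 21.5 and 16.3 in batch 1, with the same batch 1 tumors low. The Y-linked gene Ddx3y varied widely within both sets, at 27.8, 18.2 and 2.08 FPKM in batch 2 and 4.55, 15.9, 12.5, 26.4 and 20.7 in batch 1.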
